A study of Mus musculus with 8 samples.

Results

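The tripartite motif (TRIM) genes encode a family made up largely of ubiquitin ligases. The members measured here were all rows of the deposited gene table whose name is Trim followed by a number and at most 1 letter. The rule took 63 of 30445 genes. Interferon-linked members (15 genes) and the muscle-specific Trim54, Trim55 and Trim63 were set apart from the other 45. The hearts came from C57 mice, all taken 8 weeks after transverse aortic constriction, an operation that narrows the aorta and loads the left ventricle with pressure. There were 4 libraries labelled Mertk knockdown and 4 labelled wildtype, and no unoperated heart was analysed here. The labels give neither the promoter, the method nor the cells of the knockdown, and they do not say whether each library was a separate mouse, so p-values measure the spread between libraries, part of which may be technical.

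A typical TRIM protein carries a RING finger, B-boxes and a coiled coil. A C-terminal part follows that differs between members and chooses the target. The RING finger brings in a ubiquitin-conjugating enzyme, so that the protein tags its target with ubiquitin for the proteasome or for signalling. Many members are induced by interferon and act against viruses, either on the virus itself or on the sensors of viral RNA and DNA. In striated muscle the MuRF proteins encoded by Trim63, Trim55 and Trim54 sit at the sarcomere, where they turn over contractile proteins and stabilise microtubules.

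The libraries held 63378755 to 68762911 counts in the labelled knockdown group and 59287621 to 71571173 in wildtype. Mertk itself, the targeted receptor of macrophages, was at 10.6 to 12.8 CPM (counts relative to the TMM-scaled library size) in the libraries labelled knockdown and 10.4 to 12.3 CPM in wildtype (log2 fold change 0.10, SE 0.11, edgeR adjusted p = 0.766). Counts of the targeted gene thus did not separate the groups, and directions here follow the labels. All 9 cardiomyocyte markers had counts in every library. The summed level of 15 hepatocyte markers was between 206.5 and 280.9 CPM in the labelled knockdown libraries. In wildtype it was 274.5 CPM for replicate 1 and lay between 9.79 and 18.25 CPM for the others. Atrial markers summed to 678 CPM in labelled knockdown replicate 4 and to 401 and 240 CPM in wildtype replicates 3 and 4, against 22.7 to 42.8 CPM in the other libraries.

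Of the 15 interferon-linked members, 10 lie in 1 cluster on chromosome 7 between 104218793 and 104507849 (mm10, coordinates of the deposited table), a stretch of 289.1 kb. It holds Trim6, Trim34a, Trim5, Trim12a, Trim34b, Trim12c, Trim30b, Trim30c, Trim30a and Trim30d. Several of these are recent copies of each other. Over aligned coding bases, Trim34a and Trim34b were 98.8% identical, Trim5 and Trim12a 97.1%, Trim12a and Trim12c 96.4%, and Trim30a and Trim30d 90.2%. Reads of such copies may be shared between rows, and single members of the cluster are uncertain for that reason.

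The interferon-stimulated response element, a DNA element found at many interferon-induced genes, was searched as the half-site GAAA, any 2 bases and GAAA again, on both strands (TTTC, any 2 bases and TTTC on the other), with overlapping matches counted. The windows searched run from 250 bases before to 50 bases after the gene start (RefSeq, GRCm38.p6), and 49 of the 63 members had at least 1 such window. The motif was found in at least 1 window of 8 of 14 interferon-linked members with a window and of 1 of 35 other members. Of all 32851 promoter windows, 3.44% held it. Such shares, here and below, count windows and not genes. Trim30a, Trim30d, Trim5, Trim12a, Trim12c and Trim34a lie in the chromosome 7 cluster, which holds recent copies, so their matches are not separate finds. A match is a run of letters, not a measured site. The matches are printed because these are the members whose values are compared below, each 5′ to 3′ on the strand of its gene with the motif in capitals.
Trim30a, chr7:104465210-104465239, minus strand: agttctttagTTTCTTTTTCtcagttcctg
Trim30d, chr7:104507871-104507900, minus strand: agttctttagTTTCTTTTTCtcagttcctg
Trim5, chr7:104288136-104288165, minus strand: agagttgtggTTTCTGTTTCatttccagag
Trim12a, chr7:104315466-104315495, minus strand: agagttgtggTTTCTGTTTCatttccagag
Trim12c, chr7:104353359-104353388, minus strand: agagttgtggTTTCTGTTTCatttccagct
Trim34a, chr7:104244457-104244486, plus strand: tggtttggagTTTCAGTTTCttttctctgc
Trim21, chr7:102565444-102565479, minus strand: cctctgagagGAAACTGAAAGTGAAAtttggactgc
Trim26, chr17:36836976-36837011, plus strand: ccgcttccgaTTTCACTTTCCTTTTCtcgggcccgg

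Over the 30 bases printed, Trim30a and Trim30d were the same letter for letter, as were Trim5 and Trim12a, while Trim12c differed from these only after the motif. In Trim21 and Trim26 a pair of motifs overlapped. Counted from the start base as 0, the motif began at −36 in Trim30a, −41 in Trim30d, −49 in Trim5, −29 in Trim12c, 10 in Trim12a and in Trim34a, 13 in Trim21 and −160 in Trim26. Trim30a is shown with its whole upstream window (chr7:104465144-104465443, minus strand), since it had the smallest p of the family in the comparison of the groups. A further annotated start of Trim30a, not shown, also held the motif.
Trim30a promoter window: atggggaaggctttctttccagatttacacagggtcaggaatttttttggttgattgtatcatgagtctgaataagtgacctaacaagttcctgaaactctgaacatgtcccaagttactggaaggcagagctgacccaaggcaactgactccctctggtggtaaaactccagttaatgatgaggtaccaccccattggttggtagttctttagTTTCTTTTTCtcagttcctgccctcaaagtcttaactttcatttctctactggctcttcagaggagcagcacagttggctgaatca

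The interferon-gamma activated site, searched as TTCNNNGAA, was found in 1 interferon-linked member, Trim30c, and in 4 others (Trim15, Trim38, Trim45 and Trim46), against 8.3% of all windows. The windows of Trim25, Trim56, Trim6, Trim34b and Trim30b held neither run of letters, and Trim14 had no window.

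Levels within the family spanned from muscle genes to rows with a handful of counts. On the deposited FPKM (fragments per kilobase of gene and per depth, which allows levels to be compared between genes), Trim54 and Trim72 stood first. Trim54, also called MuRF3, which stabilises microtubules in muscle, had 121, 148, 117 and 97.5 FPKM in the labelled knockdown replicates 1 to 4, against 195, 114, 174 and 135 FPKM in wildtype. Trim72, also called MG53, which patches tears of the muscle membrane, had 124, 139, 148 and 108 FPKM in the labelled knockdown libraries, against 108, 130, 96.1 and 125 FPKM in wildtype. These levels overlapped, so the order of the pair was not set.

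Trim63, or MuRF1, which ubiquitinates thick-filament proteins and rises in muscle atrophy, followed at 49.5 ± 2.70 FPKM in the labelled knockdown libraries and 37.95 ± 3.02 in wildtype (SD, n = 4 each), below Trim54 and Trim72 in every library. Trim55, or MuRF2, which carries signals from the giant sarcomere protein titin, had 25.96 ± 2.53 FPKM in the labelled knockdown libraries and 22.46 ± 4.04 in wildtype (SD, n = 4 each), below Trim63 in every library. Trim35, a regulator of innate signalling, came next at 19.4 ± 1.76 FPKM in the labelled knockdown libraries and 17.98 ± 1.52 in wildtype, below Trim55 in every library (SD, n = 4 each). Trim54, Trim55, Trim63 and Trim72 together made 70.2% to 75.5% of the summed FPKM of all members in the labelled knockdown libraries and 67.7% to 75.6% in wildtype.

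Below these, 29 members averaged between 1 and 20 FPKM, Trim35 among them, and 30 averaged under 1 FPKM. The highest interferon-linked member was Trim25 at 5.50 ± 0.157 FPKM in the labelled knockdown libraries and 6.99 ± 1.30 in wildtype (SD, n = 4 each). There were 11 members with too few counts to be tested, among them Trim30c of the chromosome 7 cluster, the embryonic gene Trim71 and the erythroid gene Trim58. In those 11, 58 of 88 entries were 0 and the highest was 23 counts. In the shallowest library 3 counts, the limit that a count of 0 allows, amount to 0.0521 CPM, for counting error only.

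**Figure D1:**
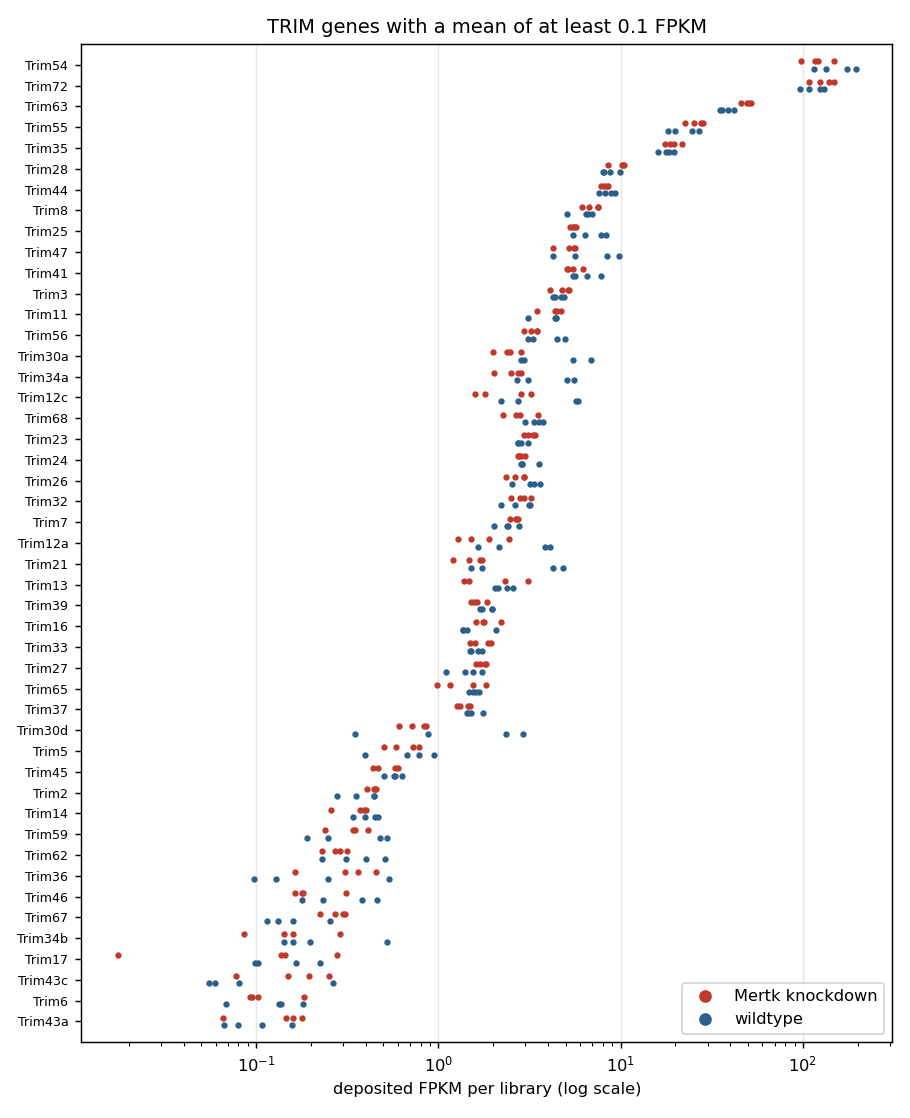
Deposited FPKM of the TRIM genes with a mean of at least 0.1 FPKM, on a log axis, 1 point per library, with the libraries labelled Mertk knockdown in red above the wildtype libraries in blue. Trim54, Trim72, Trim63 and Trim55 stand above the rest, Trim63 at 49.5 FPKM in the labelled knockdown libraries and 37.95 in wildtype, and several interferon-linked genes such as Trim30a and Trim21 show a pair of high wildtype libraries.

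No TRIM gene passed the test between the groups. Of the 52 members with enough counts, 0 were called by edgeR's quasi-likelihood test at a Benjamini-Hochberg adjusted p under 0.05, where 0.647% of all 17787 tested genes were (0.275% higher and 0.371% lower in the libraries labelled knockdown). The smallest adjusted p in the family was 0.180, for Trim30a. At an unadjusted p under 0.05 there were 9 members, 2 higher and 7 lower, which is 17.3% of the 52, where 12.4% of all tested genes reached that level (6.11% higher and 6.32% lower). DESeq2, run as an alternative, called 4 of the 48 members it adjusted, Trim63 higher and Trim21, Trim30a and Trim34a lower, where it called 3.73% of 16206 genes (1.65% higher and 2.07% lower).

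**Figure D2:**
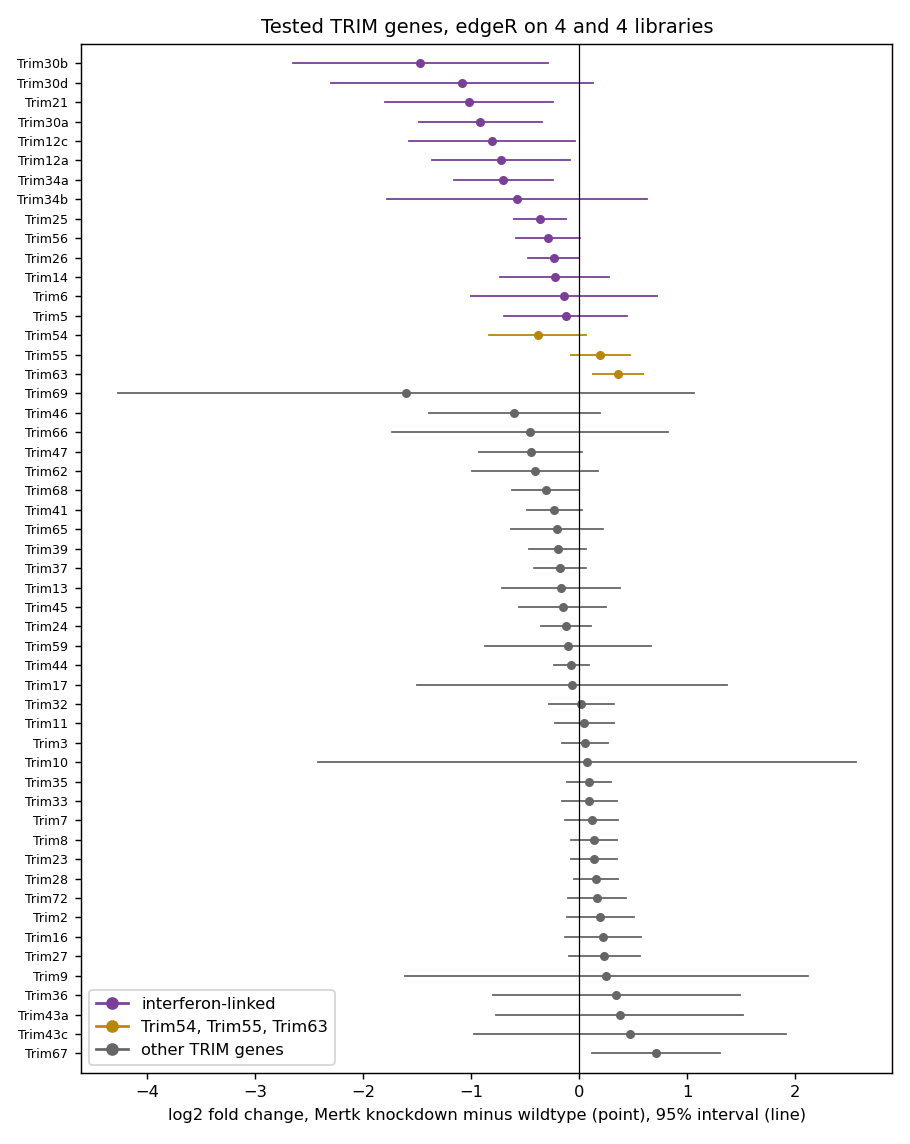
Log2 fold change of each of the 52 tested TRIM genes, libraries labelled Mertk knockdown minus wildtype, as points with 95% intervals from the edgeR fit, grouped into interferon-linked genes, the MuRF genes and the others. The 14 interferon-linked genes all lie left of 0, while the MuRF genes and the others fall on both sides.

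Most of the interferon-linked genes had lower values in the libraries labelled knockdown, with no call by edgeR. Of the 14 tested, 14 had a log2 fold change below 0, where 50.1% of all tested genes did, and their median was −0.64, against −0.0007 over all tested genes. The list was chosen with earlier results of these data known, so its direction is not independent evidence. Of the 14, 9 lie in the chromosome 7 cluster, whose copies may share reads. At an unadjusted p under 0.05, 7 of the 14 were lower and 0 higher, where 6.32% of all tested genes were lower and 6.11% higher. DESeq2 called 3 lower, where it called 2.07% of 16206 genes lower. In 3 of the 14, Trim30a, Trim34a and Trim25, all 4 labelled knockdown libraries lay below all 4 wildtype ones in CPM, where 3.9% of all tested genes were lower without overlap (8.07% in either direction). On the deposited FPKM the groups overlapped for Trim34a and Trim25 and did not for Trim30a.

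Trim30a, which in mouse restrains Toll-like receptor signalling by removing the adaptors TAB2 and TAB3 (chromosome 7, 104409025 to 104465193), was at 9.23, 11.3, 12.5 and 10.55 CPM in the labelled knockdown replicates 1 to 4, against 13.1, 30.4, 14.35 and 23.95 CPM in wildtype. Wildtype replicates 1 and 3 lay just above the highest labelled knockdown library, and wildtype replicates 2 and 4 far above it. On the log2 scale the difference was −0.91 (SE 0.26), with a 95% interval of −1.49 to −0.34; the adjusted p was 0.180 by edgeR and 0.0118 by DESeq2. Permuting the libraries exactly on log2 CPM gave a two-sided p = 0.0286, as low as 4 against 4 libraries can give.

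Trim34a, whose human counterpart TRIM34 works with TRIM5 against retroviral capsids, was at 5.94, 7.22, 7.65 and 7.89 CPM in the labelled knockdown libraries, against 8.96, 14.1, 8.33 and 15.3 CPM in wildtype. As for Trim30a, wildtype replicates 2 and 4 were the highest 2 libraries, apart from the other 6. Its log2 fold change was −0.70 (SE 0.21, edgeR adjusted p = 0.192; DESeq2 adjusted p = 0.0465).

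Trim21, a cytosolic antibody receptor that sends antibody-coated virus to the proteasome (chromosome 7, 102557921 to 102565486), was at 5.05, 6.04, 6.97 and 6.81 CPM in the labelled knockdown libraries, against 6.32, 17.1, 7.69 and 19.1 CPM in wildtype. Wildtype replicates 1 and 3 were at the level of the labelled knockdown libraries, so the groups overlapped, and the difference of the means rested on wildtype replicates 2 and 4. The log2 fold change was −1.02 (SE 0.35, edgeR adjusted p = 0.271; DESeq2 adjusted p = 0.0382), and it turned to 0.11 with the hepatocyte marker level as a covariate in edgeR. Of the wildtype libraries only replicate 1 had the marker level of the labelled knockdown libraries, so that fit rests largely on replicate 1.

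Trim25, which ubiquitinates the RNA sensor RIG-I and assists the antiviral protein ZAP (chromosome 11, 88999376 to 89020293), was the most abundant of the interferon-linked genes. It had 35.8, 34.7, 35.0 and 32.8 CPM in the labelled knockdown libraries, against 41.1, 51.4, 37.3 and 47.6 CPM in wildtype. The labelled knockdown libraries were within 1.09-fold of each other, the wildtype ones within 1.38-fold. The log2 fold change was −0.36 (SE 0.11, edgeR adjusted p = 0.197; DESeq2 adjusted p = 0.115).

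Wildtype replicates 2 and 4 were also the highest 2 libraries for Trim30d, Trim12a, Trim12c and Trim30b of the chromosome 7 cluster, but not for Trim5, Trim6 and Trim34b. Trim30d had 3.08, 2.52, 3.46 and 3.38 CPM in the labelled knockdown libraries, against 3.69, 11.8, 1.56 and 9.37 CPM in wildtype, a 7.54-fold span within wildtype. The log2 fold change was −1.09 (SE 0.53; adjusted p = 0.466 by edgeR). Trim12a and Trim12c, mouse relatives of the human restriction factor TRIM5, gave log2 fold changes of −0.72 (SE 0.28, edgeR adjusted p = 0.342) and −0.81 (SE 0.34, edgeR adjusted p = 0.378). In wildtype replicates 2 and 4 they had 25.3 and 23.6 CPM (Trim12a) and 23.0 and 23.3 CPM (Trim12c), above every other library. Trim30b was under 1 CPM in every library (log2 fold change −1.47, SE 0.53, edgeR adjusted p = 0.291). Summed over the copies, Trim30a to Trim30d differed by −0.96 on the log2 scale (edgeR adjusted p = 0.247), Trim34a with Trim34b −0.70 (0.201) and Trim12a with Trim12c −0.76 (0.359).

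Apart from Trim34b, the remaining interferon-linked genes differed less than those above. Trim56, which promotes signalling downstream of the DNA sensor cGAS, had 33.8, 35.8, 29.2 and 34.6 CPM in the labelled knockdown libraries, against 34.4, 49.5, 34.1 and 44.5 CPM in wildtype (log2 fold change −0.29, SE 0.13, edgeR adjusted p = 0.427). Trim26, a regulator of interferon production, differed by −0.24 (SE 0.11, edgeR adjusted p = 0.406) and Trim14, which joins the mitochondrial adaptor MAVS, by −0.23 (SE 0.23, edgeR adjusted p = 0.751). Of the exon bases of Trim14, 1356 of 4338 also belong to Nans on the opposite strand, which at 8.50 CPM exceeded Trim14 at 1.71 ± 0.340 CPM in the labelled knockdown libraries and 2.00 ± 0.176 CPM in wildtype (SD, n = 4 each), so its value is uncertain. Trim6 and Trim34b were at low counts, while Trim5 averaged 2.62 CPM in the labelled knockdown libraries and 2.855 CPM in wildtype. Trim5, Trim6 and Trim34b had log2 fold changes of −0.12, −0.14 and −0.58 and edgeR adjusted p of 0.898, 0.929 and 0.728. Without wildtype replicate 4 the log2 fold change of Trim34b was −6.3e-05.

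Wildtype replicates 2 and 4 were the highest 2 libraries for 11 of the 14 interferon-linked genes, for 6 of the 38 other tested members, and for 8.16% of all tested genes. Within the wildtype group the log2 CPM of 13 of these 14 genes had a larger SD than within the labelled knockdown group, as it had for 24 of the 38 other members and 54.2% of all tested genes. The 15 macrophage markers, all with counts in every library and all with a log2 fold change below 0 (0 called by edgeR), summed to 297 to 356 CPM in the labelled knockdown libraries. In wildtype replicates 1 to 4 they summed to 346, 482, 344 and 525 CPM. Their part in the values of the interferon-linked genes was not tested. In bulk heart RNA, fewer cells of a type and less RNA per cell cannot be told apart. The hepatocyte markers, of which 8 of 15 were at 0 in at least 1 library and 0 in every library, set wildtype replicates 2 to 4 apart from the other 5. The 5 libraries rich in them leave wildtype replicate 1 alone against 4. Within these 5 the median log2 fold change over the interferon-linked genes was −0.24, with Trim30a at −0.26, Trim25 at −0.24 and Trim21 at −0.02. The lone wildtype library is assumed there to vary like the others.

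**Figure D3:**
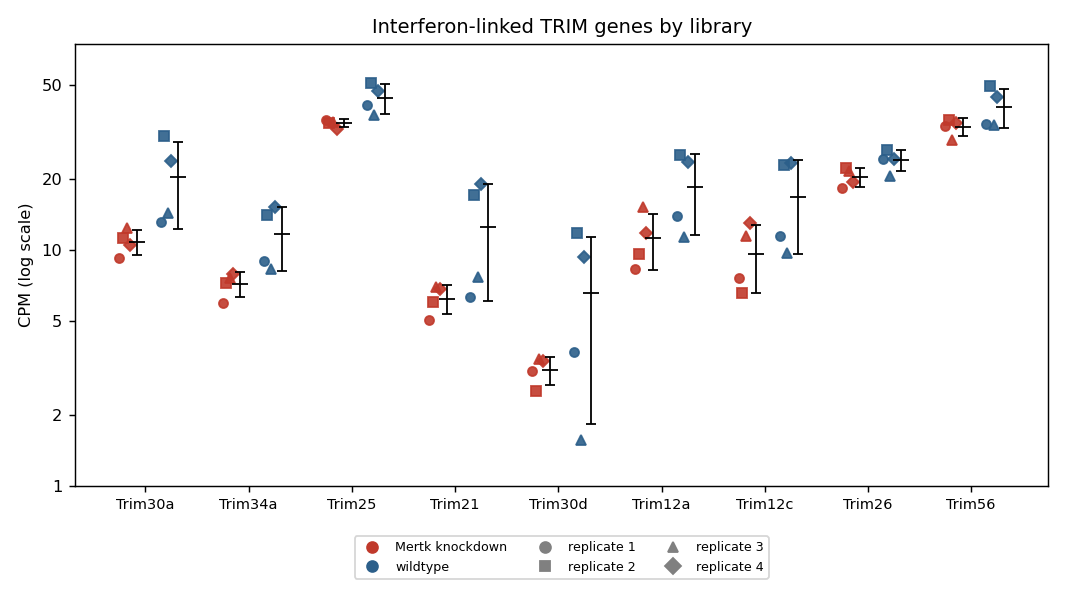
CPM by library, on a log axis, for 9 interferon-linked TRIM genes, the libraries labelled Mertk knockdown in red left of the wildtype libraries in blue, with the mean and SD of each group as a bar at its right. Wildtype replicates 2 (squares) and 4 (diamonds) lie above the other wildtype libraries, as for Trim21 at 17.1 and 19.1 CPM. For Trim26, wildtype replicates 4 and 1 are level at 24.4 CPM. Wildtype replicates 1 and 3 mostly lie close to the labelled knockdown libraries, but for Trim30d wildtype replicate 3 lies below them at 1.56 CPM.

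For comparison, interferon-stimulated genes outside the family separated the groups more. Of a list of 30, 10 were called lower and 0 higher by edgeR, where 0.371% of all tested genes were called lower. DESeq2 called 24 lower, where it called 2.07% of 16206 genes lower. The median log2 fold change of the 30 was −1.30. This list was chosen with results of these libraries known, so its direction is not independent evidence. Irf7, the factor that amplifies interferon production, had 11.0 to 18.4 CPM in the labelled knockdown libraries and 54.5 to 84.5 CPM in wildtype, so all 4 wildtype libraries stood apart from the labelled knockdown ones (log2 fold change −2.28, SE 0.20, edgeR adjusted p = 0.00125). Of the other called genes, Ifit3b and Ifit3, antiviral RNA-binding proteins, had log2 fold changes of −2.61 and −2.39, the oligoadenylate synthetase genes Oas3 and Oasl1 −2.68 and −2.17, and the antiviral enzyme gene Rsad2 −0.88 (edgeR adjusted p of 0.000132, 0.0131, 0.0174, 0.00691 and 0.00962). In 28 of the 30, wildtype replicates 2 and 4 were the highest 2 libraries. In Irf7 and Ifit3, wildtype replicates 1 and 3 also stood well above every labelled knockdown library. Of 17 partners of the interferon-linked members (ubiquitin-conjugating enzymes, RNA sensors and adaptors), 0 were called by edgeR. DESeq2 called 2 of the 17 lower, beside the 2.07% of all genes it adjusted. The RNA sensors Ifih1 and Ddx58 (RIG-I, a target of Trim25) had log2 fold changes of −0.71 (SE 0.18, edgeR adjusted p = 0.128) and −0.65 (SE 0.21, edgeR adjusted p = 0.242). Family members known under other names did not pass: Pml had −0.20 (edgeR adjusted p = 0.823), Mid2 −0.18 (0.459), and Mefv, under 1 CPM in every library, −2.39 (0.401).

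The muscle-specific members differed in direction, and none passed edgeR's test. DESeq2 called Trim63 higher and neither Trim55 nor Trim54. Trim63 (chromosome 4, 134315120 to 134329629) was at 158.3, 158.2, 158.9 and 139.9 CPM in the labelled knockdown replicates 1 to 4, against 132.7, 107.6, 130.8 and 108.7 CPM in wildtype. All 4 labelled knockdown libraries lay above all 4 wildtype ones, also on the deposited FPKM, where 4.18% of all tested genes were higher without overlap in CPM. The means differed 1.28-fold, or 0.36 on the log2 scale (SE 0.10), with a 95% interval of 0.13 to 0.59; the adjusted p was 0.186 by edgeR and 0.0460 by DESeq2. The exact permutation p, two-sided, was 0.0286, the lowest that 4 against 4 libraries can give. Any gene whose groups do not overlap reaches it. The 9 cardiomyocyte markers, none of them called, summed to 46100 to 53170 CPM in the labelled knockdown libraries and 33200 to 45250 CPM in wildtype, also without overlap. Without the myosin gene Myh6 the other 8 summed to 29120 to 32250 CPM in the labelled knockdown libraries and 25000 to 29240 CPM in wildtype, with overlap. Their part in the level of Trim63 was not tested.

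Trim55 (chromosome 3, 19644474 to 19692421) was at 82.8, 82.7, 64.5 and 72.3 CPM in the labelled knockdown libraries, against 59.1, 77.2, 57.8 and 69.5 CPM in wildtype. The groups overlapped, and the log2 fold change was 0.20 (SE 0.12, edgeR adjusted p = 0.570). Trim54 (chromosome 5, 31116712 to 31137630) was at 196.4, 233.5, 180.4 and 150.4 CPM in the labelled knockdown libraries, against 311.8, 176.4, 297.1 and 205.7 CPM in wildtype. Wildtype replicates 1 and 3 were high and wildtype replicates 2 and 4 lay among the labelled knockdown libraries, for a difference of −0.38 on the log2 scale (SE 0.20, edgeR adjusted p = 0.494). Of the 1436 exon bases of Trim54, 382 also belong to Gm15469 on the opposite strand, at 0.463 CPM.

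**Figure D4:**
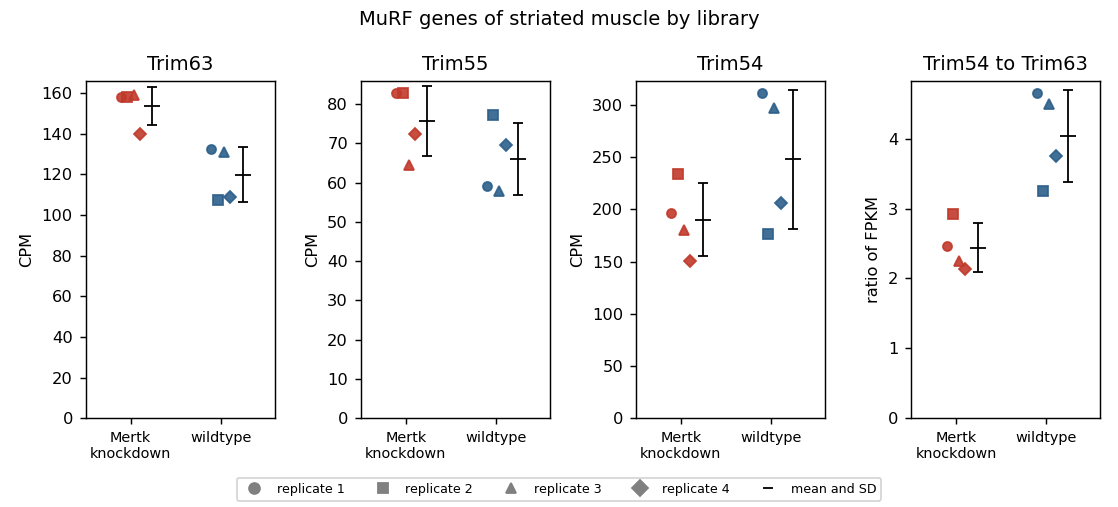
CPM of Trim63, Trim55 and Trim54 by library and, in the right panel, the ratio of Trim54 to Trim63 in FPKM within each library, libraries labelled Mertk knockdown in red left of wildtype in blue, with the mean and SD as a bar. Trim63 lies at 139.9 to 158.9 CPM in the labelled knockdown libraries and 107.6 to 132.7 CPM in wildtype, while Trim55 and Trim54 overlap. The ratio is 2.13 to 2.92 in the labelled knockdown libraries and 3.25 to 4.65 in wildtype. It was chosen after its values were seen and was not tested.

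Over aligned coding bases the 3 MuRF genes were 69.4% to 72.3% identical, so their counts are less open to sharing than those of the chromosome 7 cluster. The motif GTAAACA, bound by the FoxO factors that drive MuRF1 in wasting muscle, was searched on both strands and found in the window of Trim63, not in that of Trim54, and among the other members in that of Trim67, against 3.65% of all windows. Trim55 had no window and could not be searched. The match in Trim63 is shown because Trim63 alone of the MuRF genes was called by DESeq2. The capitals mark the motif, which begins at −194 from the start base.
Trim63, chr4:134314916-134314942, plus strand: agtctgttctTGTTTACgacccccacg

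Genes that act with the MuRF proteins in muscle wasting did not pass either. Of 20 listed, 0 were called by edgeR, with a median log2 fold change of −0.05. DESeq2 called 2 lower, where it called 2.07% of 16206 genes lower. Mstn, the growth inhibitor myostatin, had 0.256, 0.151, 0.360 and 0.161 CPM in the labelled knockdown libraries, against 0.189, 1.13, 1.20 and 2.21 CPM in wildtype (log2 fold change −2.34, SE 0.65, edgeR adjusted p = 0.169). Sqstm1, the ubiquitin-binding autophagy receptor p62 that meets MuRF proteins at titin, had 340 to 438 CPM in the labelled knockdown libraries and 431 to 689 CPM in wildtype (log2 fold change −0.52, SE 0.16, edgeR adjusted p = 0.221). Fbxo32, or atrogin-1, the other ubiquitin ligase of muscle atrophy, was named for that role after its value was seen. Its mean was 152.3 CPM in the labelled knockdown libraries and 142.6 CPM in wildtype (log2 fold change 0.09, edgeR adjusted p = 0.798).

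Of the 35 other tested members, 0 were called by edgeR or by DESeq2, and their median log2 fold change was 0.05. At an unadjusted p under 0.05, which 12.4% of all tested genes reached, there was 1, Trim67, a neuronal member with a COS box that binds microtubules. It had 2.97, 2.16, 2.55 and 2.91 CPM in the labelled knockdown libraries, against 1.58, 1.10, 1.37 and 2.39 CPM in wildtype, with wildtype replicate 4 among the labelled knockdown libraries (log2 fold change 0.72, SE 0.27, edgeR adjusted p = 0.306). Trim46, which bundles microtubules at the start of the axon, differed by −0.60 (SE 0.36, edgeR adjusted p = 0.552); 239 of its exon bases also belong to the more abundant Krtcap2 (13.4 CPM) on the opposite strand, so its value is uncertain.

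The muscle membrane gene Trim72 and Trim32, a ligase mutated in a limb-girdle muscular dystrophy, had log2 fold changes of 0.17 (SE 0.12, edgeR adjusted p = 0.640) and 0.02 (SE 0.13, edgeR adjusted p = 0.968). For Trim72 the 95% interval ran from −0.10 to 0.43 and for Trim32 from −0.28 to 0.32. Trim35 had 0.09 (95% interval −0.11 to 0.29). Of the TIF1 group, whose bromodomains read chromatin, Trim28, the corepressor of KRAB zinc-finger proteins, had 0.16 (95% interval −0.05 to 0.36), and Trim24, a coregulator of nuclear receptors, −0.12 (95% interval −0.35 to 0.11).

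Regulators of innate sensing outside the interferon-linked list (10 tested) had a median of −0.11. Trim68 had 8.85, 10.2, 13.1 and 10.5 CPM in the labelled knockdown libraries, against 13.0, 11.2, 14.8 and 13.9 CPM in wildtype (a log2 difference of −0.31, SE 0.14, edgeR adjusted p = 0.410). Trim41 had −0.23 (SE 0.11, edgeR adjusted p = 0.461), and 31 of its exon bases also belong to Rack1 (205 CPM) on the opposite strand. Among members of growth control and membrane traffic, Trim47 had 16.0, 16.9, 16.3 and 12.6 CPM in the labelled knockdown libraries, against 17.1, 28.8, 13.8 and 24.6 CPM in wildtype, with wildtype replicates 2 and 4 the highest 2 libraries (log2 fold change −0.45, SE 0.22, edgeR adjusted p = 0.445). Of the 2735 exon bases of Trim47, 225 also belong to Trim65 on the same strand, at 9.63 CPM, so the value of Trim47 is uncertain. Trim39, a regulator of the cell cycle, had −0.20 (edgeR adjusted p = 0.557). The NHL-repeat members Trim2 and Trim3, which act in neurons, had 0.20 and 0.06 (edgeR adjusted p of 0.620 and 0.869). Trim7, which binds the glycogen primer glycogenin, had 0.12 (edgeR adjusted p = 0.728). Of the 7597 exon bases of Trim7, 140 also belong to Gm12184 (12.5 CPM) and 491 to Gm16170 (2.4 CPM), both on the opposite strand.

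Members known from the germ line, early embryo and red cell were near the limit of counting. Trim69, a centrosomal protein, had 0.286, 0, 0 and 0.0734 CPM in the labelled knockdown libraries, against 0.158, 0.151, 0.729 and 0.0815 CPM in wildtype (log2 fold change −1.60, SE 1.20, edgeR adjusted p = 0.652). Single libraries set this value: it was −0.52 without wildtype replicate 3 and −3.39 without labelled knockdown replicate 1. Trim43a, of the early embryo, was at most 0.396 CPM in every library, and the erythroid gene Trim10 at most 0.3625 CPM. For Trim10 the 95% interval ran from −2.42 to 2.56 on the log2 scale, too wide at these counts to show even a large difference.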

How the data were processed

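Strand-marked libraries of heart poly(A) RNA were sequenced paired-end (Illumina NovaSeq), per the labels' protocols. The authors deposited 1 table with whole-number counts and FPKM per gene for all 8 libraries. The build was mm10 and the tools StringTie 2.1.6, HISAT2 2.2.1, cutadapt 1.9, edgeR and DESeq2, per the submitters' processing notes, which assign no roles. Annotation release and strand use in counting are not given in the sources used here, so overlapping or near-identical genes may share reads: 17 of the 63 members share exon bases with another gene of the table (GENCODE M21).

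The deposited counts were tested with edgeR 4.0.16 in R 4.3.3 (TMM, filterByExpr, glmQLFit with robust = TRUE, glmQLFTest, two-sided) on the whole table, with Benjamini-Hochberg adjustment over 17787 genes and a threshold of 0.05. The SE is the log2 fold change over the square root of F. CPM use TMM-scaled library sizes. On simulated counts for this comparison (17267 genes tested) edgeR recovered 18.8% of genes changed 1.5-fold, 59.1% of those changed 2-fold and 77% of those changed 4-fold, with 5 false calls among 103; DESeq2 made 50 false calls among 176 there. Every 2 libraries of a group differed by more than sampling noise (chi-square over its degrees of freedom at least 37.9, genes with 20 or more counts).

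Members and gene lists were chosen with earlier results of these data known. Named genes are all tested interferon-linked and MuRF members, any called member, the 2 smallest p of each other list and of unlisted members, the 5 highest mean FPKM, up to 6 called genes (otherwise 2 with the smallest p) of each pathway list, and Mertk; values of other genes were chosen after they were seen. Alternatives were RLE and upper quartile factors, other filters, DESeq2 1.42.0, limma 3.58.1 on the deposited FPKM with a pseudocount of 1 or 0.1, marker covariates, a replicate block, and subsets of libraries. Promoter windows are from RefSeq.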

Additional observations from a re-analysis of the deposited data

Results flagged for a closer look

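Within groups of 4 libraries, the highest or lowest CPM of each of 34 named members was compared with its nearest neighbour by Dixon's ratio at its 95% critical value, which chance exceeds in about 1 of 20 groups; 5 of 68 groups exceeded it. Trim63 in labelled knockdown replicate 4 was 139.9 CPM, against 158.2 to 158.9 CPM in the other 3. Trim34b in wildtype replicate 4 was 1.03 CPM, against 0.330 to 0.392 CPM. Trim6 and Trim46 in labelled knockdown replicate 3 were 0.972 and 1.27 CPM, against 0.499 to 0.574 and 0.695 to 0.784 CPM. Trim69 in wildtype replicate 3 was 0.729 CPM, against 0.0815 to 0.158 CPM.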

How the results depend on the processing

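edgeR called 0 members in each setting that kept more than 1 library per group, where it called 0.0327% to 1.45% of all tested genes. These settings include the 8 that each leave out 1 library (0 to 0), where 0.242% to 1.45% of genes were called. With limma on FPKM 0 members were called as well, where 0.069% to 0.394% of genes were. Counts of 0 beside such small shares say little about the family. DESeq2 called 4 members, 3 of the interferon-linked list and 1 of the MuRF genes, and 0 of the others, where it called 3.73% of 16206 genes. Deviations from the group mean correlated at 0.062, 0, −0.006 and 0.181 between same-numbered libraries 1 to 4, and at −0.148 to 0.076 between differently numbered ones. The pair numbered 4, both rich in atrial markers, had the highest correlation. The labels do not say what shares a number, so the numbers were not taken as pairs. With the replicate block 24 genes of the table were called instead of 115, and 0 members. The median of the interferon-linked genes ran from −0.82 to −0.43 when 1 library was left out. It was −0.24 within the libraries rich in hepatocyte markers and −0.13 with the hepatocyte covariate, where Trim30a is −0.20 and Trim63 0.17. Apart from wildtype replicate 1 the hepatocyte marker level follows the groups, so fits with this covariate rest largely on that library. On log2(FPKM + 1) and log2(FPKM + 0.1), scales that compress low values, the median was −0.24 and −0.36. Of the 34 named members, 25 kept their direction in every alternative run for them: 22 for Trim30a, Trim34a and Trim12a, for which copies were summed, 20 for Trim30b, Trim43a and Trim69, which the filter of 1 CPM left without a value there, and 21 for the others. With the hepatocyte covariate the sign turned for Trim21 (0.11), Trim56 (0.0020), Trim34b (0.30), Trim46 (0.20), Trim3 (−0.050) and Trim32 (−0.080). Within the libraries rich in hepatocyte markers it turned for Trim34b (0.087), Trim46 (0.18), Trim3 (−0.056), Trim32 (−0.15) and Trim10 (−0.31). Without libraries rich in atrial markers, a subset chosen after seeing the data, as were the summed copies, it turned for Trim34b (0.034) and Trim32 (−0.0089). Trim10 also turned on log2(FPKM + 0.1) (−0.024) and with the atrial covariate (−0.58). Leaving out 1 library gave −0.81 to 0.49 for Trim10, −0.047 to 0.092 for Trim32, −0.30 to 0.038 for Trim5, −0.40 to 0.036 for Trim6, −0.93 to −6.3e-05 for Trim34b and −3.39 to −0.52 for Trim69. The cause was not tested. Members under 1 CPM are limited by depth.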

Other observations

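The balance between MuRF genes within a library was described after its values were seen, with no test. The ratio of Trim54 to Trim63 in FPKM, which does not depend on the scaling between libraries, was 2.46, 2.92, 2.25 and 2.13 in the labelled knockdown replicates 1 to 4, against 4.65, 3.25, 4.50 and 3.75 in wildtype (means 2.44 ± 0.349 and 4.03 ± 0.658, SD, n = 4 each). The 2 groups did not overlap in this ratio, nor did they in the FPKM of Trim63 alone, which enters it. The ratio of Trim55 to Trim63 was 0.434 to 0.559 in the labelled knockdown libraries and 0.472 to 0.767 in wildtype, and that of Trim54 to Trim55 was 3.85 to 5.23 in the labelled knockdown libraries and 4.23 to 9.77 in wildtype, both with overlap. Among the wildtype libraries, replicates 1 and 3 had the highest Trim54 and the lowest Trim55.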
